A study of Mus musculus with 35 samples.

Results

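Podocytes of *Lmx1b*H77L/lox mice were compared with podocytes of *Lmx1b*+/lox control mice after both groups had received bortezomib, to see which differences in gene expression stay present with the drug. The comparison holds 12 of the 35 mice of the series, 6 in each group, chosen by genotype and treatment alone. All 12 mice carried an rtTA transgene under a podocyte promoter, the tetO::Cre transgene LC-1 and the mT/mG reporter, received doxycycline at 2 mg/ml in the drinking water for 7 days and bortezomib at 0.3 µg/g by intraperitoneal injection every other day, were 7 to 10 weeks old and on a C57BL/6 background. In the controls (group WT in the labels) Cre removed exons 4 to 6 from the only floxed *Lmx1b* allele and left a wild-type allele, so that they are heterozygous podocytes and not untouched ones. In *Lmx1b*H77L/lox mice the remaining allele carries the H77L substitution in the LIM-A domain. Cre is induced through rtTA in podocytes only, and cells in which it had acted turned green and were collected by FACS on day 7. Further groups used here for comparison are 6 control and 6 *Lmx1b*H77L/lox mice that received DMSO, the solvent, in place of bortezomib, and 5 *Lmx1b*C118F/lox mice (LIM-B domain) that received bortezomib. Expression was measured by poly(A) RNA sequencing and is given in TPM, a unit of transcript abundance that corrects for gene length and sums to 1000000 in each mouse. Of the 33292 genes listed, 10805 exceeded 1 TPM in all 6 mice of either group and were tested. The depth, as whole reads recovered from the steps of the TPM values, was 17247134 to 20784755 reads in the *Lmx1b*H77L/lox mice (median 18702134) and 16923935 to 23581312 in the controls (median 19035520).

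LMX1B is a LIM-homeodomain transcription factor of podocytes, the cells whose interdigitating foot processes and slit diaphragms form the outer layer of the glomerular filter, and mutations of the human gene cause nail-patella syndrome. Its LIM domains bind partner proteins and its homeodomain binds DNA. Bortezomib, used against multiple myeloma, inhibits the catalytic activity of the proteasome, the complex that degrades ubiquitin-tagged proteins.

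The sorted cells carried podocyte transcripts at high levels in both groups. The summed level of 10 podocyte markers ranged from 28367 to 36476 TPM in the controls (median 32103) and from 10916 to 15244 TPM in *Lmx1b*H77L/lox mice (median 11700), so that the groups did not overlap. Of these markers, 9 were lower at an adjusted p under 0.05, 90% called against 23.6% over all genes tested. *Nphs1*, encoding nephrin and singled out as the exception, had 215 ± 71.3 TPM in the controls and 199 ± 30.9 TPM in *Lmx1b*H77L/lox mice (mean ± SD, n = 6 each, log2 fold change -0.06, adjusted p = 0.871 from limma). In bulk RNA of sorted cells, fewer podocytes and less podocyte RNA per cell cannot be told apart. Markers of other cells moved as well. The sum of 12 mesangial and smooth muscle markers rose from 50.6 to 83.8 TPM in the controls (median 63.0) to 414 to 627 TPM (median 521). This rise was carried by *Des*, *Pdgfrb* and *Mcam*, the 3 members called higher of 5 tested (60% called, against 23.6% over all genes). Other defining genes of the list stayed low. The means were 0.224 and 0.486 TPM for *Myh11*, the myosin of smooth muscle, 0.229 and 0.418 TPM for *Itga8*, an integrin of mesangial cells, and 3.56 and 4.57 TPM for *Acta2*, which did not pass (adjusted p = 0.222). The 11 parietal epithelial markers summed to 70.5 to 132 TPM in the controls (median 102) and to 189 to 231 TPM in *Lmx1b*H77L/lox mice (median 201). Here *Cldn1*, the most abundant with the H77L allele, *Akap12* and *Scel* were higher of 5 tested (60% called, against 23.6% over all genes). *Krt19* had means of 0.454 and 0 TPM. The 13 endothelial markers summed to 1986 to 3143 TPM (median 2624) and 1835 to 2219 TPM (median 2033), overlapping, nearly all of it *Plat*, which was lower with -0.35 (adjusted p = 0.0290), while *Pecam1* and *Cdh5* had means of 1.33 and 1.13 TPM in the controls and 0.807 and 0.651 TPM in *Lmx1b*H77L/lox mice. The call of *Plat* was lost in 8 of 26 alternatives, 5 of which left out 1 mouse (*Lmx1b*H77L/lox mouse 2, 5 or 6 or control mouse 3 or 4), with an adjusted p of up to 0.0921. Proximal tubule markers summed to 93.9 to 1110 TPM in the controls (median 261) and to 59.2 to 287 TPM in *Lmx1b*H77L/lox mice (median 80.4), and leukocyte markers to 6.07 to 33.7 TPM (median 9.71) and 10.7 to 50.5 TPM (median 15.6). Both of these pairs overlapped, and *Cd3e* of T cells and *Cd79a* of B cells were at 0 in all 12 mice. Of 4 proximal tubule markers tested, 1 was lower and 1 higher (50% called, against 23.6% over all genes). The lower one was *Gatm*, the most abundant, with a log2 fold change of -1.14 (adjusted p = 1.11e-04). *Csf1r*, the only leukocyte marker tested, rose with 1.45 (adjusted p = 6.96e-04). *Csf1r* starts 11581 bases after the end of *Pdgfrb* on the same strand. *Hmgxb3* overlaps *Csf1r* on the opposite strand, with means over the 12 mice of 10.2 TPM and 7.08 TPM. Reads in the shared stretch cannot be assigned without strand, so that the call of *Csf1r* is uncertain. The part of other cells in the results below was not tested beyond the fits without the mice richest in tubule markers and with the summed tubule markers as a covariate.

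*Lmx1b* (ENSMUSG00000038765, chr2:33450977-33531093 of GRCm39, minus strand) did not pass the test. The controls spanned 54.9 to 125 TPM (median 88.1) and the *Lmx1b*H77L/lox mice 86.7 to 161 TPM (median 93.8). The groups overlapped. The log2 fold change was 0.25 (standard error, SE, 0.18; adjusted p = 0.353 from limma). Under DMSO the same comparison gave 0.78 (adjusted p = 7.91e-04), and the difference between the treatments, -0.53, had an adjusted p of 0.256. These values add up the reads of all exons and of both alleles and show neither the deletion nor the H77L codon.

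Under bortezomib, 100 genes rose and 30 fell in *Lmx1b*H77L/lox podocytes, 0.925% and 0.278% of the genes tested, with an adjusted p below 0.001 together with a change of more than 2 log2 units. Genes past both cutoffs are called up- or down-regulated here. With an adjusted p below 0.05, whatever the size, 1355 genes (12.5%) were higher and 1190 (11.0%) lower. All fold changes are differences of mean log2(TPM + 1), a scale on which weakly expressed genes appear to change less than they do. The median over all genes tested was -0.01, on values scaled to the same sum in every mouse. In 97 of the 100 up-regulated genes every *Lmx1b*H77L/lox mouse lay above every control mouse, and in 29 of the 30 down-regulated genes every one lay below. Over all genes tested, 6.8% and 5.3% were separated in this way. The genes past both cutoffs were chosen by their difference in the same 12 mice, so that their separation follows largely from that choice. The median level of the up-regulated genes was 3.21 TPM in the controls and 29.2 TPM with the H77L allele, against 23.7 and 23.8 TPM in the genes not called. Of the 100, 34 had a control median under 1 TPM and were tested only because they exceeded 1 TPM in the *Lmx1b*H77L/lox mice. The down-regulated genes went from a median of 46.0 TPM to 6.33 TPM.

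**Figure D1:**
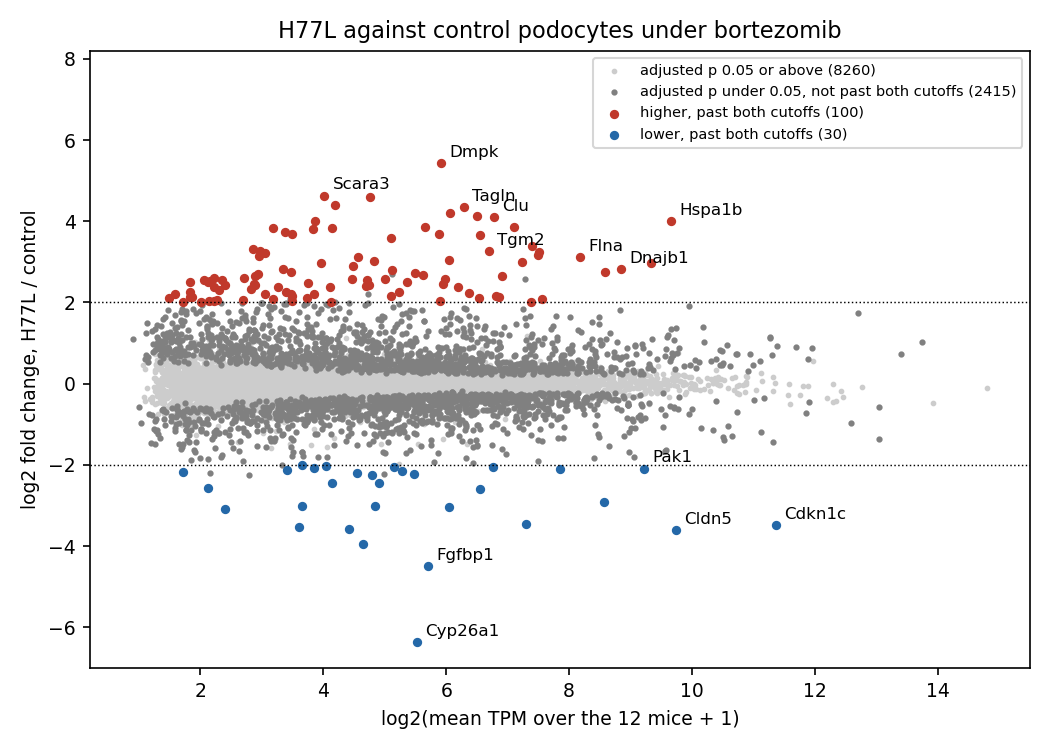
Each point is 1 of the 10805 genes tested, with the log2 of its mean TPM over the 12 bortezomib-treated mice plus 1 on the horizontal axis and its log2 fold change (H77L against control) on the vertical axis. The 100 up-regulated genes (red) outnumber the 30 down-regulated ones (blue), dotted lines mark a log2 fold change of 2 in either direction, and *Cdkn1c* and *Cldn5* are the most abundant of the genes that fell.

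The deepest fall was that of *Cyp26a1* (ENSMUSG00000024987, chr19:37686241-37689984, plus strand), whose product degrades retinoic acid. Its level was 59.6 to 126 TPM in the controls (median 89.1), while 4 of the 6 *Lmx1b*H77L/lox mice were listed at 0 and the highest had 0.267 TPM. In reads, the controls held 5765 together and the *Lmx1b*H77L/lox mice 4. The log2 fold change was -6.36 (SE 0.20, adjusted p = 4.46e-12 from limma), and every *Lmx1b*H77L/lox mouse lay far below every control. In the list of retinoic acid genes 2 members fell, the other being *Rarres1*, the most abundant of the list, at -1.08 (adjusted p = 1.79e-06). In the same list *Tgm2*, encoding transglutaminase 2, an enzyme that cross-links proteins, rose from 15.4 to 22.7 TPM (median 18.1) to 168 to 221 TPM (median 182). That is a log2 fold change of 3.27 (SE 0.10, adjusted p = 4.46e-12), without overlap. Of the 17 list members tested, 6 were higher and 2 lower (47.1% called, against 23.6% over all genes), with a median log2 fold change of 0.04.

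Among abundant transcripts the largest falls were those of *Cdkn1c* and *Cldn5*. *Cdkn1c* (ENSMUSG00000037664, chr7:143012069-143014806, minus strand) encodes a cyclin-dependent kinase inhibitor typical of mature podocytes. It went from 4156 to 5571 TPM in the controls (median 4834) to 300 to 557 TPM (median 449), a log2 fold change of -3.48 (SE 0.13, adjusted p = 2.66e-11). *Cldn5* (ENSMUSG00000041378, chr16:18595597-18597012, plus strand), a claudin of podocytes and endothelium, went from 1232 to 1783 TPM (median 1594) to 89.0 to 162 TPM (median 130), a log2 fold change of -3.61 (SE 0.13, adjusted p = 2.66e-11). In neither gene did the groups come near each other. *Cldn1*, the claudin of parietal epithelial cells, moved the other way, from 16.9 to 29.8 TPM (median 18.3) to 61.7 to 91.1 TPM (median 73.8), with a log2 fold change of 1.82 (SE 0.14, adjusted p = 1.72e-07) and again no overlap. The remaining falls by the rule for named genes were *Fgfbp1* (-4.49, adjusted p = 2.7e-07), a carrier protein of fibroblast growth factors, *Rassf2* (-3.54, adjusted p = 8.88e-10), a Ras association domain protein, *Snx31* (-3.45, adjusted p = 1.08e-10), a sorting nexin, and the neighbours *BB014433* (-3.96) and *Gm45274* (-3.57), which lie on opposite strands 132 bases apart. *Pak1* (ENSMUSG00000030774, chr7:97437327-97562132, plus strand), a kinase downstream of Rac and *Cdc42* that acts on the actin cytoskeleton, had 890 to 1060 TPM in the controls (median 975) and 198 to 264 TPM in *Lmx1b*H77L/lox mice (median 227). Its log2 fold change of -2.09 (SE 0.08, adjusted p = 7.13e-11) was just past the cutoff, although the groups were far apart.

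Podocyte genes outside these extremes fell by smaller factors. *Synpo*, encoding the actin-associated synaptopodin, went from a median of 2210 to 905 TPM (-1.28, adjusted p = 4.2e-07), and the phosphatase gene *Ptpro* from 1168 to 343 TPM (-1.67, adjusted p = 2.7e-07). In both genes all *Lmx1b*H77L/lox mice lay below all controls. Of 28 slit diaphragm and foot process genes tested, 12 were lower and 5 higher (median -0.30), 60.7% called against 23.6% over all genes. None of 20 podocyte transcription factors was higher and 7 were lower (35% called, median -0.25), among them *Lmo4* (-1.24, adjusted p = 1.58e-06) and *Wt1* (-1.03, adjusted p = 2.10e-04). An antisense transcript, *Wt1os*, overlaps *Wt1*, and the reads of the 2 cannot be told apart in libraries without strand. Among secreted signals, the semaphorin gene *Sema3g* fell from a median of 783 TPM to 221 TPM (-1.68, adjusted p = 2.94e-05), and of 18 VEGF, angiopoietin and semaphorin genes 4 were higher and 5 lower (50% called).

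**Figure D2:**
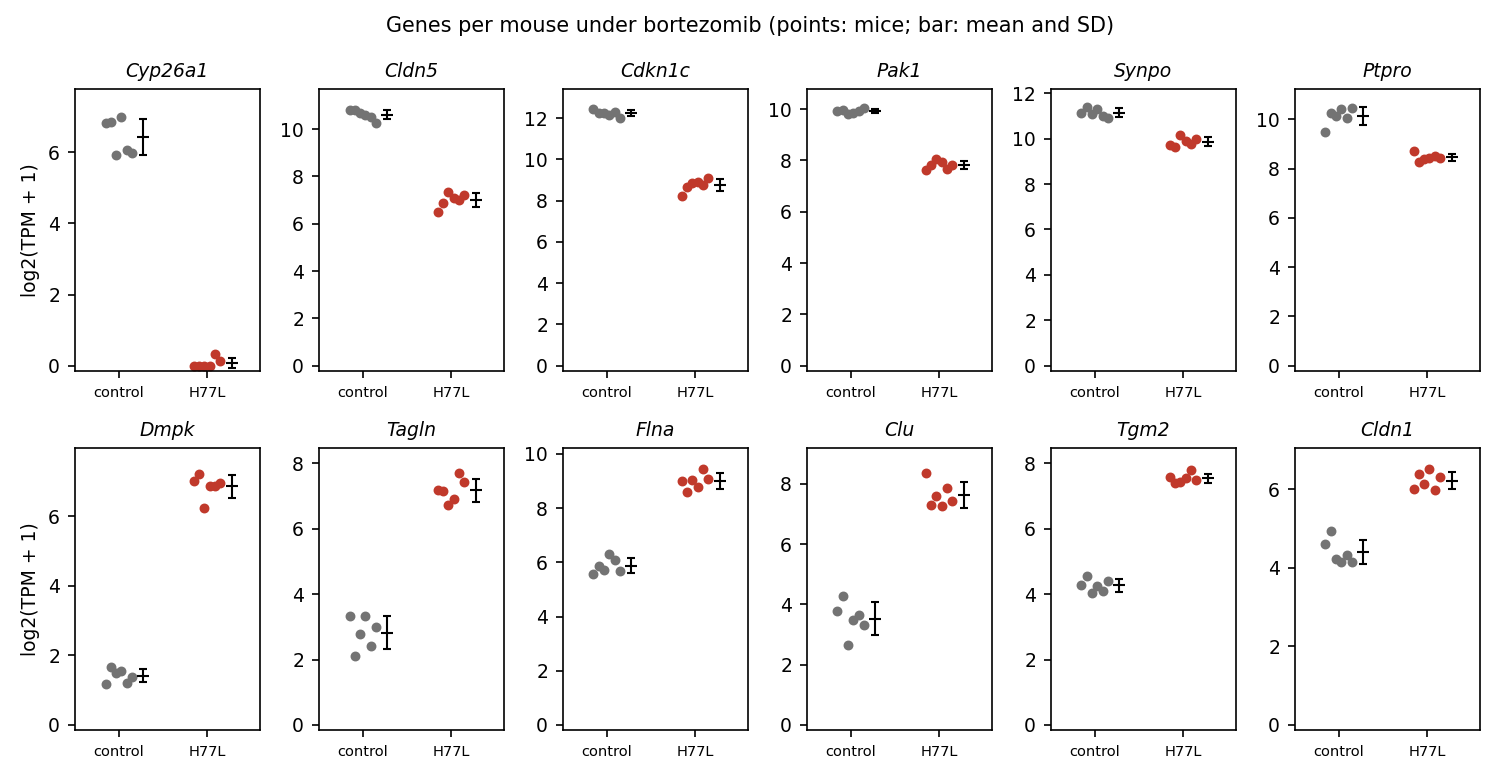
Every point is 1 mouse under bortezomib (6 controls in grey, 6 H77L mice in red), the vertical axis is log2(TPM + 1) with a scale of its own for each gene, and the bar beside the points gives mean and SD. The upper row shows genes that were lower and the lower row genes that were higher in H77L podocytes, and in all 12 genes the groups are apart.

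The largest rise was that of *Dmpk* (ENSMUSG00000030409, chr7:18817406-18827746, plus strand), the myotonic dystrophy protein kinase gene. It had 1.28 to 2.16 TPM in the controls (median 1.72), while the *Lmx1b*H77L/lox mice spanned 74.1 to 146 TPM (median 119), a log2 fold change of 5.44 (SE 0.15, adjusted p = 2.35e-12). The groups were separated by more than the spread of either. Its neighbours had smaller values. *Six5*, 439 bases away and singled out for its position, had 8.31 to 15.3 and 9.86 to 14.4 TPM (log2 fold change 0.05, adjusted p = 0.881), and *Dmwd*, 700 bases away on the other side, rose by 0.84 (adjusted p = 2.79e-04). *Camk2a* (4.39, adjusted p = 4.46e-10), a calcium and calmodulin-dependent kinase gene, and *Abra* (4.20, adjusted p = 1.54e-08), whose product binds actin, were further large rises. *Camk2a* lies 56988 bases from *Pdgfrb*, the platelet-derived growth factor receptor gene that was up-regulated at 3.65 (adjusted p = 1.82e-07). *Scara3* (4.63) and *Clu* (4.11), which encodes the extracellular chaperone clusterin, overlap on opposite strands of chromosome 14. *Clu* went from 5.28 to 18.6 TPM (median 10.8) to 152 to 330 TPM (median 181). Reads in the shared stretch cannot be assigned to either strand, so that the lower of the 2, *Scara3*, at most 52.1 TPM, is uncertain. *Wfdc1* (4.13) and the predicted gene *Gm53533* (4.60), 11396 bases from *Itga11*, complete the 8 largest rises with *Tagln*.

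Genes of the contractile cytoskeleton made up the pathway list with the highest share of risen members. Of 26 tested, 21 were higher and 1, *Cnn3*, was lower at an adjusted p under 0.05, 7 of them past both cutoffs (84.6% called at that p, against 23.6% over all genes), and the median log2 fold change was 0.90 against -0.01 over all genes. *Tagln* (ENSMUSG00000032085, chr9:45840909-45847404, minus strand), encoding transgelin, an actin-binding protein of smooth muscle, rose from 3.27 to 9.17 TPM (median 6.40) to 105 to 207 TPM (median 142), a log2 fold change of 4.36 (SE 0.21, adjusted p = 8.77e-10). *Flna* (ENSMUSG00000031328, chrX:73265347-73293456, minus strand), encoding the actin cross-linker filamin A, rose from 46.0 to 78.8 TPM (median 54.9) to 381 to 692 TPM (median 522), a log2 fold change of 3.12 (SE 0.14, adjusted p = 4.55e-10). The groups did not overlap in either gene. *Myl9*, the regulatory light chain of smooth muscle myosin (3.40, adjusted p = 1.98e-07), *Des*, the intermediate filament protein desmin (3.18, adjusted p = 8.77e-10), and *Mustn1* (2.65, adjusted p = 7.24e-08) followed, while *Actb*, the most abundant member with medians of 7614 and 13953 TPM, rose by 0.74 (adjusted p = 3.62e-03) with overlapping groups and did not pass without the filter (adjusted p = 0.0745). Defining genes of skeletal muscle, a list of 13 written after the rises had been seen stood low in most mice. Their summed level was 0.672 to 18.8 TPM in the controls (median 4.42) and 0.397 to 88.1 TPM in *Lmx1b*H77L/lox mice (median 2.36), and the medians of *Ckm* and *Acta1* were 0.0817 and 1.65 TPM in the controls and 0 and 0.0629 TPM in *Lmx1b*H77L/lox mice. Tnni2, a troponin of fast muscle, went the other way, with medians of 0.579 and 1.99 TPM and highest values of 3.64 and 23 TPM. *Srf*, encoding the factor that binds CArG boxes in the promoters of contractile genes and also singled out, had medians of 35.3 and 66.1 TPM (log2 fold change 0.70, adjusted p = 0.0440).

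The RefSeq promoters (GRCm38.p6, 250 bases before to 50 after the start site) were searched for the CArG box. It stood in 1.54% of the genes tested that had a promoter entry and in 5 of the 18 risen contractile genes with one (27.8%), namely *Actg1*, *Cnn2*, *Myl6*, *Myl9* and *Vcl*. CArG boxes lie in promoters of contractile genes, so that a high share can be built into such a list. The share among members that did not rise was not taken. The promoter of *Myl9* is shown as the example among the up-regulated members, at chr2:156775214-156775513 of GRCm38.p6 on the plus strand, with the CArG box in capitals.
Myl9: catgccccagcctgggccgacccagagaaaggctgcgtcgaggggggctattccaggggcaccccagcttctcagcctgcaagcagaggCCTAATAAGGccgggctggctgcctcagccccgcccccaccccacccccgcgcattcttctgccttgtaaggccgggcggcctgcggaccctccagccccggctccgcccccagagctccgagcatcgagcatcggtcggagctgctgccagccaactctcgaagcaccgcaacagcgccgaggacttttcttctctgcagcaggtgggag
The box begins 161 bases before the start site. The sequence TAATTA was searched in the same promoters as well. It stood in 3.0% of the genes tested that had an entry. Among the up-regulated genes with an entry the share was 1.52% (*Flna* only), and among the down-regulated ones 6.67% (*Wnt8b* only). A match of letters is a description and not a bound site.

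Genes of actin regulation, adhesion and matrix were mixed or higher. Of 28 actin regulators of foot processes 11 were higher and 5 lower (57.1% called, against 23.6% over all genes), of 17 integrin and focal adhesion genes 7 were higher and none lower (41.2%), and of 16 interstitial and matricellular matrix genes 8 were higher and none lower (50%). *Itgb1*, the most abundant integrin gene, went from a median of 2217 to 4248 TPM (log2 fold change 0.91, adjusted p = 2.38e-05). Of 15 basement membrane genes 6 rose and none fell (40.0%), with *Col4a2* at 2.03 (adjusted p = 6.56e-05) and *Col4a1* at 1.52 (adjusted p = 7.91e-04), 2 genes that overlap at their starts on opposite strands. The collagen IV chains of the mature glomerular basement membrane did not pass, with log2 fold changes of -0.14 for *Col4a3*, 0.07 for *Col4a4* and 0.03 for *Col4a5*, 3 genes singled out as that set. Of 21 proteases and protease inhibitors 10 were higher and 4 lower (66.7%). *Timp1* (ENSMUSG00000001131, chrX:20736316-20740976, plus strand), an inhibitor of matrix metalloproteinases, went from 1.21 to 4.36 TPM (median 3.23) to 14.3 to 32.4 TPM (median 20.8), a log2 fold change of 2.48 (SE 0.23, adjusted p = 7.44e-07), without overlap of the groups. It shares a stretch with *Syn1* on the opposite strand, where reads cannot be assigned.

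Immune genes were mixed. *Serping1*, an inhibitor of complement C1, went from 137 to 191 TPM (median 158) to 325 to 485 TPM (median 402), with a log2 fold change of 1.33 (SE 0.10, adjusted p = 1.22e-07), and of 9 complement genes 5 were higher and 2, *Cd59a* and *Cd55*, both protectors of the own cell surface, were lower (77.8% called). *B2m*, the light chain of MHC class I, rose from a median of 1591 to 2843 TPM (1.13, adjusted p = 1.56e-04) without overlap. *H2-Q7* fell from 83.2 to 237 TPM (median 100.03) to 8.45 to 16.0 TPM (median 12.5; -3.05, adjusted p = 6.11e-08), and *H2-Q6* and *H2-Q5* of the same cluster on chromosome 17 were down-regulated with it. These 3 genes are close copies, and how their reads were split between them is uncertain. Of 38 interferon-induced genes 8 were higher and none lower, a share of 21.1% against 23.6% called over all genes, with a median of 0.13. Of 17 NF-kappaB targets and chemokines 7 were higher and 2 lower (52.9% called, median 0.57), *Nfkb2* with 1.55 (adjusted p = 1.94e-06). *Lgals3*, the galectin followed by the study, had overlapping groups, 0.421 to 11.8 TPM and 5.66 to 21.9 TPM (medians 1.94 and 16.9; 2.08, SE 0.53, adjusted p = 9.34e-03, and 0.094 with *Xist* as a covariate), whereas *Cd63*, a tetraspanin of lysosomes, rose from a median of 197 to 717 TPM (1.82, adjusted p = 4.04e-07). Of 33 lysosome and autophagy genes 8 were higher and 1 lower, a share of 27.3% near the 23.6% called over all genes.

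Further lists held rises and falls side by side. Of 19 genes of calcium handling and calcineurin 6 were higher and 2 lower (42.1% called, against 23.6% over all genes), among them the calcium pump genes *Atp2a3* (from a mean of 4.25 to 38.3 TPM, log2 fold change 2.91, adjusted p = 2.42e-06) and *Atp2b4* (2.49, adjusted p = 1.22e-07) and the calcineurin regulator *Rcan2* (42.6 to 189 TPM, 2.13, adjusted p = 2.93e-07). All 3 were separated between the groups. Of 28 TGF-beta and YAP genes 7 were higher and 8 lower (53.6%). *Tgfb3*, a TGF-beta ligand, rose from a mean of 5.16 to 19.5 TPM (1.64) and *Ccn2*, a YAP target, from 1805 to 3527 TPM (0.92), whereas *Id3* (-1.55) and *Id1* (-1.42), targets of BMP signalling, and *Yap1* itself (-0.66) fell. *Id1* did not pass with *Xist* as a covariate (adjusted p = 0.144), nor *Id3* with all 35 mice in 1 fit (adjusted p = 0.053). *Vim*, the intermediate filament protein vimentin, rose from 649 to 1672 TPM (1.40, adjusted p = 1.27e-05), while *Krt7* fell (-1.21). Of 26 NRF2 targets and metallothioneins 7 were higher and 1, the catalase gene *Cat*, lower (-0.49), 30.8% called. *Gpx3*, a secreted glutathione peroxidase and the most abundant of these, went from a mean of 3428 to 9808 TPM (1.73, adjusted p = 4.20e-04) without overlap. In the BCL2 family *Bok* (1.48) and *Bid* (1.39), which promote cell death, were higher with overlapping groups, and *Bcl2l2* (-0.49), which protects from it, was lower, of 10 tested (30.0% called against 23.6% over all genes). With *Xist* as a covariate *Bok* and *Bid* did not pass (adjusted p = 0.0699 and 0.0582). Of 15 annexins and S100 proteins 5 were higher and 2 lower (46.7%), *S100a6* with the largest change (1.87) and *Anxa2* with the deepest fall (-0.76).

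**Figure D3:**
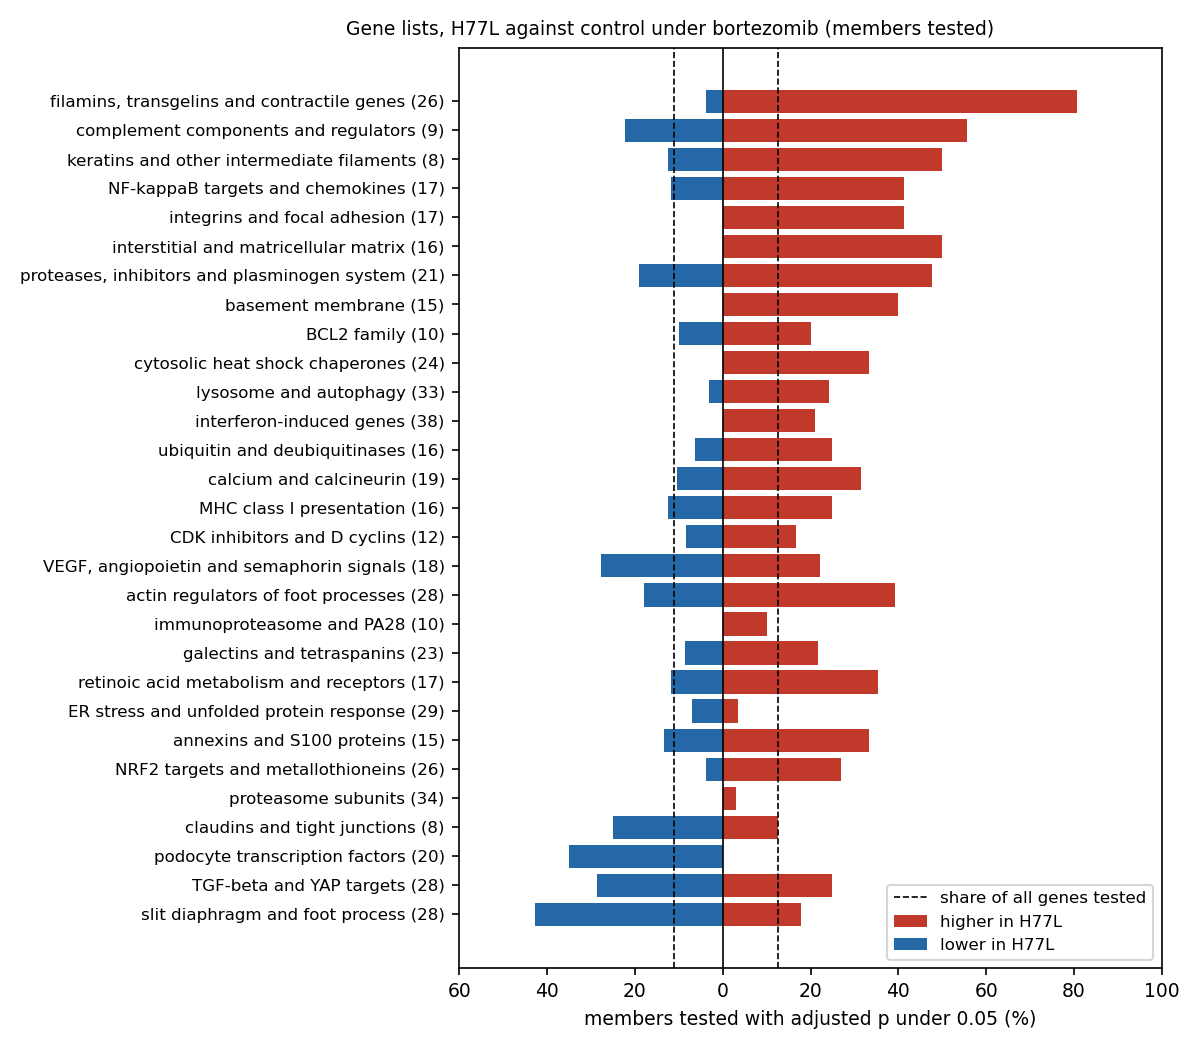
Bars give, for each gene list with at least 8 members tested (number in brackets), the percentage of members higher (red, to the right) and lower (blue, to the left) in H77L podocytes under bortezomib at an adjusted p under 0.05, ordered by the median log2 fold change. Dashed lines mark 12.5% and 11.0% over all genes tested, and the contractile list reaches furthest to the right while podocyte transcription factors lie on the left only.

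The same comparison without the drug called 178 genes higher and 60 lower among 10964 tested, 1.62% and 0.547% (2.17% together), in 12 other mice. The 2 comparisons share no mouse. Some DMSO-treated mice stood apart in markers of other cells. Control mouse 1 had leukocyte markers at 617 TPM (8.73 to 127 TPM in the other 5 controls), erythroid markers at 93.5 TPM, mesangial and smooth muscle markers at 193 TPM and immediate early genes at 13382 TPM (25749 to 61204 TPM in the other 5). Proximal and distal tubule markers were highest in control mouse 2, at 1598 and 1339 TPM, and in *Lmx1b*H77L/lox mouse 5, at 1151 and 193 TPM. *Lmx1b*H77L/lox mouse 6 had the highest sum of parietal markers, 441 TPM (233 to 290 TPM in the other 5), and the lowest sum of podocyte markers, 5485 TPM (7191 to 10567 TPM in the other 5). Without control mouse 1 the DMSO comparison called 203 genes higher and 57 lower, without *Lmx1b*H77L/lox mouse 6 it called 159 and 58, and without the mouse of each group richest in tubule markers 186 and 61. Of the genes called under DMSO, 74 of the 178 rises (41.6%) and 27 of the 60 falls (45.0%) were called under bortezomib in the same direction, which are 74.0% of the rises and 90.0% of the falls under the drug. Genes called under DMSO only and tested under bortezomib had not lost their direction. Of the 104 rises called under DMSO only, 88 were tested under bortezomib, all 88 were on the higher side, and in 76 the adjusted p was below 0.05. Of the 33 falls, 26 were tested, and all 26 were lower with an adjusted p under 0.05 (over all genes 12.5% were higher and 11.0% lower). The genes not tested did not exceed 1 TPM in every mouse of either group under bortezomib. Rises that sank below this level with the drug can thus be missing from these counts and from the medians that follow. The size was smaller in most. Among 162 rises called under DMSO and tested in both treatments, the median log2 fold change was 2.60 under DMSO and 1.98 under bortezomib, and 145 were smaller under bortezomib. Among 96 rises called under bortezomib and tested in both, it was 2.87 under DMSO and 2.59 under bortezomib, with 62 smaller under bortezomib. A choice by one treatment favours large values in that treatment, so that both choices are given. For falls the medians were -2.49 and -2.04 over 53 genes called under DMSO, and -2.74 and -2.51 over 30 genes called under bortezomib.

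**Figure D4:**
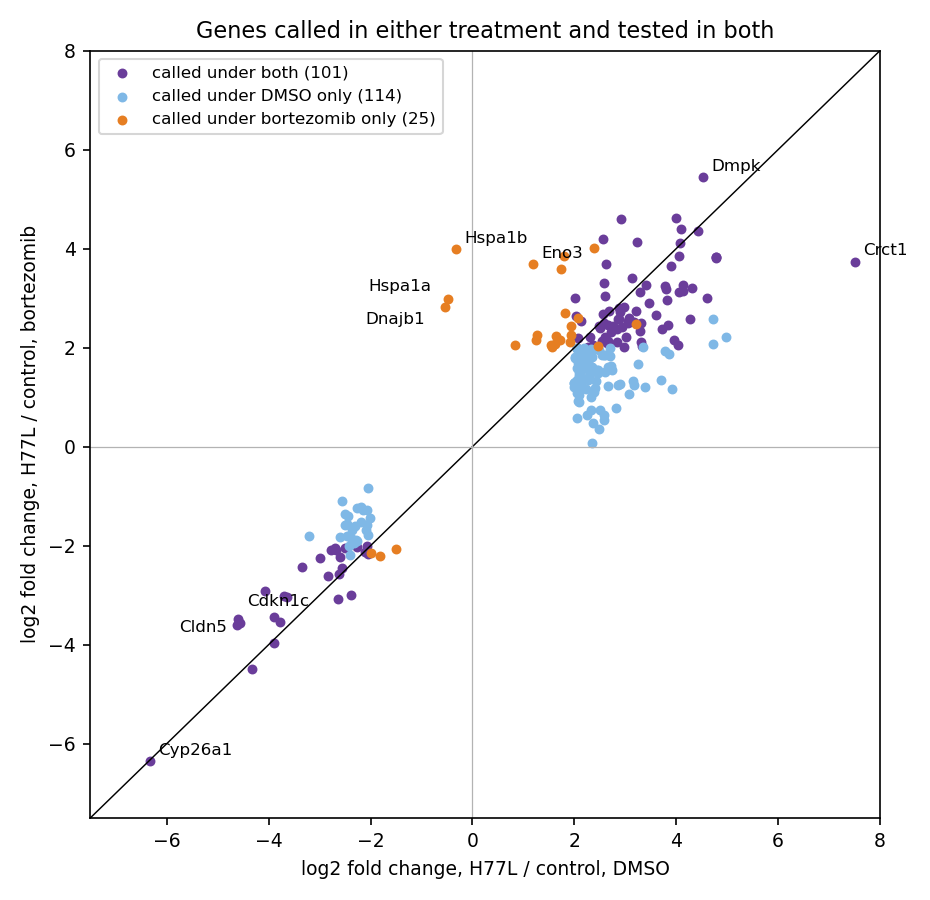
Each point is 1 gene called in either treatment and tested in both, with its log2 fold change (H77L against control) under DMSO on the horizontal and under bortezomib on the vertical axis, and the diagonal marks equal values. Most of the 114 genes called under DMSO only (light blue) lie between the diagonal and the zero line, the 101 called in both (purple) include *Cyp26a1*, *Cldn5* and *Dmpk*, and among the 25 called under bortezomib only (orange) *Hspa1a*, *Hspa1b* and *Dnajb1* are the only points with a negative value under DMSO and a positive one under bortezomib.

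The test of the difference itself is the interaction of genotype and treatment over the 24 mice. With all mice, limma called none of 11163 genes at an adjusted p under 0.05, although 2037 (18.2%) had an unadjusted p under 0.05. That count rests on single mice. Without control mouse 1 under bortezomib 275 genes were called, 173 with a larger and 102 with a smaller signed difference under bortezomib, and without control mouse 5 under DMSO 199 were called, 141 of them shared. Without mouse 5 of the DMSO-treated *Lmx1b*H77L/lox group the number was 18, and with any other mouse left out it was between 0 and 4. The lowest adjusted p with all mice was 0.0564. *Itga5*, encoding the fibronectin receptor chain, was among the genes that had it. Its levels were 7.92 to 12.4 TPM in controls and 36.7 to 135 TPM in *Lmx1b*H77L/lox mice under DMSO, and 10.8 to 18.5 TPM and 21.2 to 27.9 TPM under bortezomib. The log2 fold changes were 2.51 and 0.74, and their difference of -1.77 had an unadjusted p of 5.62e-06. *Socs3*, a feedback inhibitor of cytokine signalling, had a log2 fold change of 2.34 under DMSO (adjusted p = 1.09e-05) and of 0.07 under bortezomib (adjusted p = 0.912), where the groups overlapped widely at medians of 723 and 866 TPM. Under DMSO the medians were 278 and 1522 TPM. *Gys2*, the liver form of glycogen synthase, was listed at 0 to 0.197 TPM in controls under DMSO and at 0 to 3.28 TPM under bortezomib. With the H77L allele it had 11.3 to 25.2 TPM under DMSO and 3.49 to 9.48 TPM under bortezomib. *Crct1* was at 0 in all 6 controls under bortezomib and at 2.60 to 53.4 TPM with the H77L allele, at least 161-fold higher against 3 reads over the control group. Of the 466 reads behind this limit in the *Lmx1b*H77L/lox mice, 215 came from 1 mouse, and without it the limit would be lower. Under DMSO the *Crct1* median in *Lmx1b*H77L/lox mice was 375 TPM.

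Under bortezomib only, 26 genes were up-regulated and 3 down-regulated. Of the 26, 22 were tested under DMSO, and 16 of these were higher there at an adjusted p under 0.05, as were 22.4% of all genes. The largest change among them was that of *Islr* (4.005, adjusted p = 7.30e-09, against 2.38 under DMSO). *Slc2a4*, the insulin-responsive glucose transporter GLUT4, had 1.47 to 9.48 TPM in the controls (median 4.56) and 43.4 to 89.4 TPM in *Lmx1b*H77L/lox mice (median 54.2), without overlap (log2 fold change 3.58, adjusted p = 2.11e-06, against 1.74 under DMSO). *Eno3*, the muscle form of the glycolytic enzyme enolase, had 4.59 to 11.1 TPM (median 7.27) and 67.6 to 214 TPM (median 90.9), again apart (3.68, adjusted p = 5.02e-08). Under DMSO the *Eno3* groups overlapped at 4.09 to 97.8 TPM and 7.81 to 114 TPM (1.19, adjusted p = 0.201). *Mylpf*, a myosin light chain of fast muscle, had 3.85 under bortezomib and 1.80 under DMSO, where its controls reached 167 TPM. The skeletal muscle markers summed to 0.398 to 800.3 TPM in the DMSO-treated controls (median 24.9), highest in control mouse 1, and to 1.92 to 220.2 TPM in the DMSO-treated *Lmx1b*H77L/lox mice (median 4.33), highest in mouse 5. Without that control mouse the log2 fold change under DMSO was 1.70 in *Eno3* (adjusted p = 0.0471) and 2.26 in *Mylpf* (adjusted p = 5.91e-04). It was 2.94 in *Islr* (adjusted p = 7.95e-05) and 1.73 in *Slc2a4* (adjusted p = 1.63e-04). *Islr* and *Mylpf* passed both cutoffs under DMSO in that fit, so that their place among genes called under bortezomib only depends on that mouse. These 4 genes were chosen after their values had been seen, and the difference between the treatments had an adjusted p of 0.207, 0.0814, 0.127 and 0.114 in *Islr*, *Slc2a4*, *Eno3* and *Mylpf*. Of the genes called under bortezomib only and tested in both treatments, 3 heat shock genes alone had fitted log2 fold changes of opposite sign. Their values under DMSO were smaller than the SE (0.77 in *Hspa1b*, 0.75 in *Hspa1a* and 0.60 in *Dnajb1*) and did not pass. No fall under DMSO was thus shown. *Hspa1a* and *Hspa1b* encode the inducible cytosolic chaperone that binds unfolded proteins, and *Dnajb1* encodes its co-chaperone. Their transcription is driven by heat shock factors when unfolded proteins accumulate. *Hspa1b* (ENSMUSG00000090877, chr17:35175412-35178214, minus strand) had 19.3 to 167 TPM in the controls (median 126) and 572 to 2897 TPM in *Lmx1b*H77L/lox mice (median 1386) under bortezomib. The groups were apart, with a log2 fold change of 3.99 (SE 0.49, adjusted p = 1.74e-05 from limma). Under DMSO it had 94.7 to 903 TPM in controls (median 482) and 52.7 to 1221 TPM in *Lmx1b*H77L/lox mice (median 323), overlapping widely, with a log2 fold change of -0.32 (adjusted p = 0.758). *Hspa1a* (ENSMUSG00000091971, chr17:35188166-35191132, minus strand) had 70.4 to 203 TPM (median 135) and 413 to 2233 TPM (median 1069) under bortezomib, a log2 fold change of 2.98 (SE 0.33, adjusted p = 6.89e-06), against -0.48 under DMSO. The 2 genes lie 9952 bases apart and are near-identical copies, so that the split of reads between them is uncertain, and they are not independent of each other. *Dnajb1* (ENSMUSG00000005483, chr8:84334811-84339820, plus strand) is not such a copy. It had 73.5 to 144 TPM (median 96.8) and 252 to 1384 TPM (median 832), a log2 fold change of 2.82 (SE 0.32, adjusted p = 6.89e-06), against -0.54 under DMSO. The difference between the treatments had an adjusted p of 0.0814 in each of the 3 genes with all mice. Without control mouse 1 under bortezomib it was 0.036 in *Dnajb1*, 0.0395 in *Hspa1b* and 0.0501 in *Hspa1a*, and without control mouse 5 under DMSO 0.0382, 0.0466 and 0.0589, so that *Hspa1a* passed in neither. The medians of the controls were lower, and those of the *Lmx1b*H77L/lox mice higher, under bortezomib than under DMSO, differences within a genotype that were not tested.

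Of the 24 cytosolic heat shock genes tested, 8 were higher and none lower under bortezomib (33.3% called, against 23.6% called and 12.5% higher over all genes, median 0.21). Under DMSO 5 were higher and none lower (20.8% called, against 44.8% called and 22.4% higher over all genes there). Beside the 3 above, those higher under bortezomib were *Hspb1* (1.91, adjusted p = 9.67e-06), *Bag3* (1.54), *Hsp90aa1* (1.08), *Hspa4* (0.52) and *Hsph1* (0.58). The most abundant of the list, the small heat shock protein gene *Cryab*, had medians of 2400 and 2598 TPM and did not pass (0.17, adjusted p = 0.386). Sorting can itself change such transcripts. The summed level of 24 immediate early genes, which respond within minutes to handling, was 40752 to 71647 TPM in the controls (median 65191) and 39357 to 62667 TPM in *Lmx1b*H77L/lox mice (median 46986). Of 23 tested, 1 was higher and 3 were lower, a share of 17.4% called, below the 23.6% over all genes. Under DMSO 11 of 23 were higher and 1 lower (52.2% called, against 44.8% over all genes there). The median log2 fold change of these genes was -0.02 under bortezomib and 0.75 under DMSO. The part of handling in the heat shock values was not tested.

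The heat shock element, which heat shock factors bind, was searched in the same promoters as GAANNTTC or TTCNNGAA, each of which reads the same on both strands and may overlap the other. It stood in 13.6% of the genes tested that had a promoter entry, in 13.6% of the up-regulated ones, and in 5 of the 7 risen heat shock genes with an entry. A high share can be built into a list of heat shock genes, and the share among members that did not rise was not taken. The promoters of *Hspa1a* (chr17:34972107-34972406 of GRCm38.p6, minus strand), *Hspa1b* (chr17:34959189-34959488, minus strand) and *Hspb1* (chr5:135887669-135887968, plus strand) are shown because these genes carried the largest rises of the list with a match, with each match in capitals.
Hspa1a: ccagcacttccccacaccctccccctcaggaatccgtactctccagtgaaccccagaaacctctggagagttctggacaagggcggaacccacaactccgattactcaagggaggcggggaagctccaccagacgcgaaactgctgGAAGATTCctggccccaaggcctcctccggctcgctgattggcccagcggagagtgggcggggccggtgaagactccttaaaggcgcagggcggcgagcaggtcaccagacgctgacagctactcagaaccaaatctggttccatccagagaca
Hspa1b: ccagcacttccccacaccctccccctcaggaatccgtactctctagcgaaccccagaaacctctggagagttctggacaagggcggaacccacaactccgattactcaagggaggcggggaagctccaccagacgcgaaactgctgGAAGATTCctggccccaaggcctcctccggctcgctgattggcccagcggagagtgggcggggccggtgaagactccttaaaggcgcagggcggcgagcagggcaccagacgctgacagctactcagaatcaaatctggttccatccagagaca
Hspb1: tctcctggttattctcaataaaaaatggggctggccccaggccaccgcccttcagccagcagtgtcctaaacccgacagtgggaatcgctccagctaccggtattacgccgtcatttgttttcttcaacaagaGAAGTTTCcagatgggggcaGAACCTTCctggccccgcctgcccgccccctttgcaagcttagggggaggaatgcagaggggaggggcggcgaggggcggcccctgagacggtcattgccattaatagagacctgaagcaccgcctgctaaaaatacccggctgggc
The *Hspa1a* and *Hspa1b* windows differ at 4 of 300 bases (98.7% identity) and hold the element at the same place, 104 bases before the start site, while *Hspb1* holds it at 117 and 97 bases before the start. No match was found in the windows of *Dnajb1*, which says only that these letters are absent there.

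**Figure D5:**
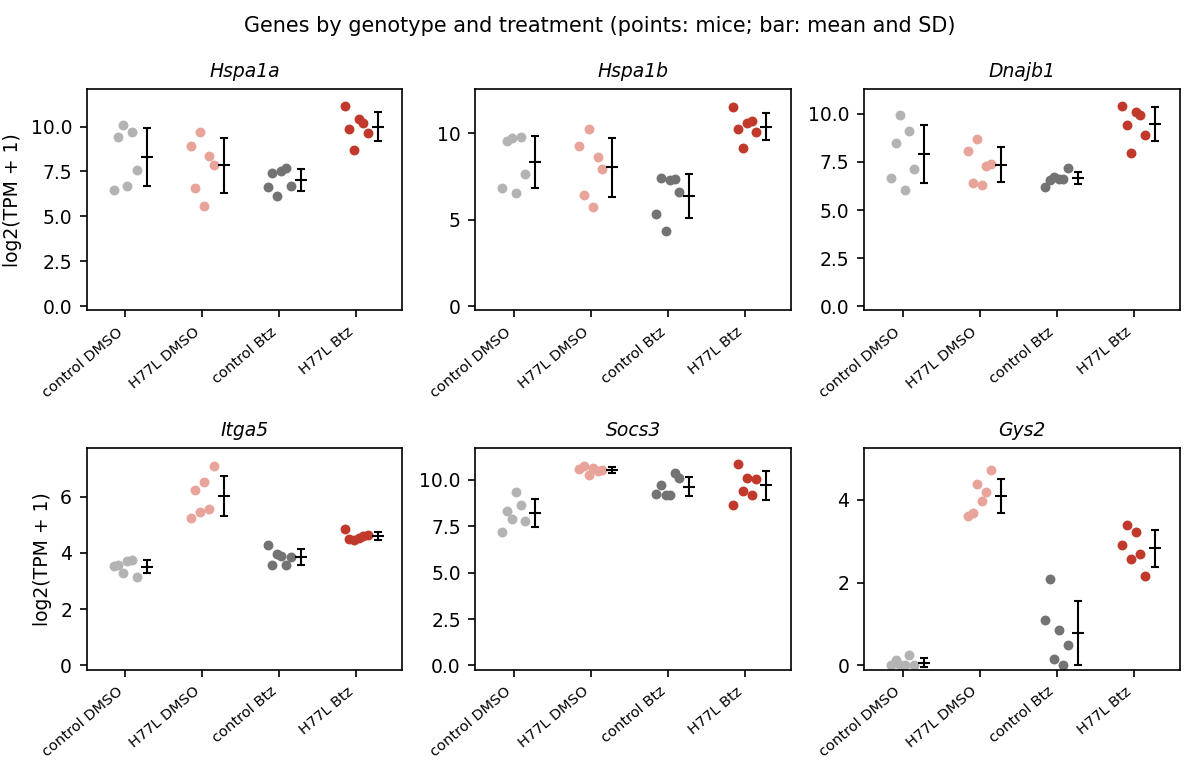
Every point is 1 mouse, the vertical axis is log2(TPM + 1), and the bars give mean and SD of 6 mice for control and H77L podocytes under DMSO (light) and bortezomib (dark). *Hspa1a*, *Hspa1b* and *Dnajb1* separate the genotypes only under bortezomib, whereas *Itga5*, *Socs3* and *Gys2* have a smaller gap under bortezomib than under DMSO, and the interaction passed for none of the 6 genes with all mice.

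Few genes of the proteasome, the target of the drug, passed the test between the genotypes under bortezomib. Of 34 subunits tested, *Psmd12* of the regulatory particle was higher, from 132 to 159 TPM (median 147) to 174 to 213 TPM (median 191) with a log2 fold change of 0.38 (SE 0.07, adjusted p = 1.02e-03), and none was lower (2.94% called against 23.6% over all genes, median -0.02). Under DMSO 3 subunits were higher and 13 lower (median -0.19), and their share of 47.1% called was near the 44.8% over all genes in that treatment. *Nfe2l1*, encoding the transcription factor that raises proteasome genes when proteasome activity falls, went from 564 to 704 TPM (median 625) to 876 to 1087 TPM (median 1041), a log2 fold change of 0.70 (SE 0.08, adjusted p = 1.05e-05), and had 0.58 under DMSO. Of 16 genes of ubiquitin and deubiquitinases 4 were higher and 1, *Ubb*, was lower (31.2% called, against 23.6% over all genes). The call of *Ubb* was lost in 11 of 26 alternatives, 8 of which left out 1 mouse (*Lmx1b*H77L/lox mouse 1, 2, 3, 5 or 6 or control mouse 1, 2 or 3), with an adjusted p of up to 0.107. The ER stress list had 1 member higher, *Asns*, and 2 lower, *Edem1* and *Pdia4*, of 29 tested (10.3% called). Under DMSO 10 of 31 were higher and 1 lower (35.5% called against 44.8% over all genes). *Pdia4* did not pass in 6 of 26 alternatives, 4 of them without *Lmx1b*H77L/lox mouse 5 or 6 or control mouse 4 or 5, with an adjusted p of up to 0.0991.

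At the fold cutoff, *Gmpr* (2.00), *Tal2* (2.01) and *Dlgap1* (2.02) stood just inside and *Trim47* (2.00), *Larp6* (2.00) and *Apba1* (1.99) just outside among rises, and *Sox8* (-2.01), *Trabd2b* (-2.04) and *Gm266* (-2.04) inside and *Dnase1l1* (-1.96), *Gja3* (-1.94) and *Nxph3* (-1.91) outside among falls. Bortezomib-treated *Lmx1b*C118F/lox mice were compared with the same 6 controls, so that their values are set beside those of *Lmx1b*H77L/lox mice without a test of likeness. There, 166 genes were higher and 45 lower past both cutoffs (1.52% and 0.412% of 10916, 1.93% together). The log2 fold changes in C118F and H77L mice were -6.09 and -6.36 for *Cyp26a1*, -4.52 and -3.61 for *Cldn5*, 5.91 and 5.44 for *Dmpk*, and 3.12 and 3.12 for *Flna*. For *Hspa1b* they were 1.20 (adjusted p = 0.191) and 3.99, for *Hspa1a* 0.62 (adjusted p = 0.296) and 2.98, and for *Dnajb1* 0.32 (adjusted p = 0.377) and 2.82. The levels of *Dnajb1* in the 5 C118F mice, 78.5 to 237 TPM, overlapped those of the controls and lay below all *Lmx1b*H77L/lox mice. Among these C118F mice, 1 had 5269307 reads, fewer than any other mouse of the series.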

How the data were processed

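RNA of FACS-sorted podocytes was sequenced from single mice (single-end, poly(A), SMART-Seq kit without strand information). Per the submitters' processing notes and the study's methods, reads were trimmed with Trim Galore 0.6.7, aligned with STAR to GRCm39, with reads that fit several places put at 1 of them at random, and counted per gene with featureCounts 1.6.3. The authors deposited TPM values, which they had corrected for gene length and scaled to 1000000 per mouse. No further scaling was applied here. TPM holds no depth, but for each gene its steps gave whole reads within a relative tolerance of 1e-10 in 100% of 23943 expressed genes, with gene lengths taken from the annotation for 4473 genes and searched for in 19470 (the smallest length that gave whole reads), and these reads serve for depth, floors and 1 alternative test. Counts of reads cover counting error only.

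Genes that exceeded 1 TPM in all mice of either group were tested with limma 3.58.1 (R 4.3.3, moderated statistics with a trend over mean expression) on log2(TPM + 1), without covariates, in only the groups compared, with Benjamini-Hochberg adjustment over all genes tested. Filter and cutoffs (adjusted p under 0.001, absolute log2 fold change above 2) follow the study, whose own test was made for read counts. Lists were read at an adjusted p under 0.05. The interaction was fitted over 24 mice. On simulated data for the bortezomib comparison, 200 of 10805 genes were changed, and 90% of changes of 1 and 100% of changes of 2.5 (log2) were recovered, with 10 false calls among 200. The changed genes were drawn from the more abundant ones, and the noise was normal and independent between genes. These figures thus do not cover weakly expressed genes.

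The labels give no litter, sex or sequencing date and no replicate numbers. Mice were numbered in accession order, each library is 1 mouse, and p-values measure the spread between these mice. No pair of libraries within a group used here agreed within sampling noise (mean chi-square per gene at least 15.2). *Xist* was at 8.46 TPM or more in all 35 mice, and 4 Y-linked genes summed to at most 0.755 TPM. Named genes were *Lmx1b*, 10 genes the study followed by staining or qPCR, the 8 largest separated rises and falls, up to 3 leading members and the most abundant member of each list, the 5 lowest interaction p in each direction, genes at the fold cutoff and the most abundant marker of each cell type. Any other gene was chosen after its values were seen. Some genes that the rule names are not reported here. The comparison, the lists and the rules were chosen with earlier results of these data known, and some pathway members were followed by the study on these samples, so no list is independent evidence of its direction. Names, positions and strands are from GENCODE vM39 (GRCm39). Promoter sequences are from RefSeq (GRCm38.p6), matched by symbol for 66 of the 100 up-regulated and 15 of the 30 down-regulated genes. Figures were drawn with matplotlib 3.10.9 under Python 3.11.15. Alternatives were other pseudocounts, filters, scalings, covariates and error models, voom on the reads, looser cutoffs and leaving out each mouse. The DMSO-treated C118F group was not used here.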

Additional observations from a re-analysis of the deposited data

Results flagged for a closer look

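In groups of 6 mice, 5 of 83 groups had a highest or lowest mouse whose gap to the next, divided by the range of the group, was above Dixon's critical value. Chance alone gives about 1 such group in 20. Among *Lmx1b*H77L/lox mice under bortezomib, *Lmx1b* was highest in mouse 1 at 161 TPM, with the next mouse at 106 TPM. *Dmpk* was lowest in mouse 3 at 74.1 TPM, with the next at 116 TPM. *Camk2a* was highest in mouse 4 at 39.6 TPM, with the next at 34.0 TPM, and *Nfe2l1* was lowest in that mouse at 876 TPM, with the next at 1031 TPM. Among the controls, *H2-Q7* was highest in mouse 3 at 237 TPM, with the next at 103 TPM. In all of these genes but *Lmx1b* the groups of the 2 genotypes did not overlap with these mice included.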

How the results depend on the processing

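The 100 rises and 30 falls past both cutoffs were within 1.5 times these numbers under most alternatives. With a pseudocount of 5 they were 45 and 15, of which 32 and 15 were also called under DMSO, and with voom on recovered reads there were 153 rises. With looser cutoffs (adjusted p below 0.05, more than 1 log2 unit) there were 447 rises and 236 falls, 356 and 176 of them shared with DMSO. With *Xist* as a covariate, 736 genes in place of 1190 were lower at an adjusted p under 0.05. Leaving out 1 mouse gave 92 to 111 rises, 27 to 33 falls, 1155 to 1463 genes higher and 981 to 1356 lower at an adjusted p under 0.05, 67 to 82 rises and 24 to 28 falls shared with DMSO, and 0 to 275 genes with an interaction. The interaction called 7 genes with *Xist* as a covariate, 7 with a pseudocount of 5, 3 without the intensity trend, 2 each with a filter at 5 TPM, quantile normalization and robust eBayes, and 1 with median-ratio scaling. The cause of these changes was not tested. Under fits chosen after seeing the data, without the mouse richest in tubule markers of each group there were 112 rises and 31 falls, and with the summed tubule markers as a covariate 114 and 32. The direction of *Socs3* under bortezomib turned when single mice were left out, between -0.16 and 0.27. *Actb* did not pass without a filter (adjusted p = 0.0745), *Itga5* (0.0754) and *Id3* (0.053) with all 35 mice in 1 fit and *Lgals3* (0.094), *Id1* (0.144), *Bok* (0.0699) and *Bid* (0.0582) with *Xist* as a covariate. *Hspa1a*, *Hspa1b*, *Dnajb1*, *Cyp26a1* and *Dmpk* passed an adjusted p under 0.05 in all 26 alternatives, and *Crct1* in 25, since it was not tested with the filter at 5 TPM. No paired analysis was possible because the labels give no replicate numbers that tie mice of the groups together. Every mouse had *Xist* and next to no Y-linked transcripts, so that sex by these genes did not differ between the groups and *Xist* as a covariate does not stand for it. Sequencing day is not in the labels and was not tested. Genes at a few reads, such as *Cyp26a1* in *Lmx1b*H77L/lox mice, are limited by depth.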
